A study of Mus musculus with 12 samples.

Results

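Transcripts of 37 type I interferon response genes were followed in mouse cumulus cells, the somatic cells of the granulosa lineage that enclose the oocyte. The 37 were chosen by symbol as sensors, receptor subunits, transcription factors and induced targets of the pathway, with earlier results of these data known. All 37 were found among the 23997 rows of the expression table. Values are FPKM, fragment numbers scaled to transcript length and library size, so that levels of different genes are on a per-length scale. Of the 37 genes, 27 reached at least 1 FPKM in at least 3 libraries and entered the tests. The other 10, namely Ifit2, Ifit3, Dhx58, Oas2, Rsad2, Mx1, Mx2, Ifi44, Parp14 and Zbp1, were too low in most libraries to be tested and are described by their values.

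The study compared ClpP-/- females (KO) with wild-type females (WT), all C57BL/6J, at 3 and 6 months of age, with 3 libraries in each of the 4 groups. ClpP cuts proteins inside mitochondria as part of the matrix protease ClpXP, and the title of the study concerns reproductive aging. Every mouse, KO or WT, was primed with PMSG, a gonadotropin from pregnant mare serum that drives follicle growth, at 5 IU, and cumulus-oocyte complexes were taken 44 h later by the treatment protocol or 48 h later by the series description. Each library held cDNA of 100 cumulus cells pooled from 1 mouse. The spread within a group thus holds differences between mice together with those of cell collection and library making, which cannot be told apart.

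Type I interferons are secreted proteins that bind a receptor of 2 subunits, IFNAR1 and IFNAR2. The receptor activates the kinases JAK1 and TYK2, and STAT2 and IRF9 then act within the complex ISGF3, which binds interferon-stimulated response elements in promoters and switches on a large set of antiviral genes. Cells make interferon when cytosolic sensors meet viral RNA, or DNA and RNA of the cell itself, mitochondrial nucleic acids among them.

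The labels were first checked on Clpp, which lay between 88.2 and 146 FPKM in the 6 WT libraries and between 0.769 and 6.63 in the 6 KO libraries. Inha, a marker of granulosa cells, was abundant in every library (2419 to 6334 FPKM). Summed FPKM of 8 granulosa and cumulus markers, Inha among them, was lowest in 3-month KO library 3 (2775) and was 3789 in 6-month KO library 3. The highest sum was 6781. Single markers differed. Fshr was at 36.3 and 30.7 in these KO libraries against 58.6 to 211 in the rest, whereas Foxl2 was at 8.1 and 11.0 against 0.582 to 16.1. Library 3 of every group was the highest of its group in summed markers of leukocytes and of theca and stroma. The genotype and age comparisons of the 27 tested genes are therefore given with and without library 3. Summed FPKM of 14 leukocyte markers was 287, 523 and 1554 in library 3 of 3-month KO, 6-month WT and 6-month KO, with all 14 above 0 in each, and 91.9 in library 3 of 3-month WT, against 4.19 to 84.1 in libraries 1 and 2. Small RNA entries took up 32.0% and 37.6% of all FPKM in the KO libraries numbered 3 at 3 and 6 months, 25.7% in 3-month WT library 1 and 6.86% or less elsewhere. The spacing of low values put relative library depth between 0.641 and 1.0 of the deepest library.

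Many inducible members were low in 10 of the 12 libraries and higher in KO library 3 at both ages. In 20 of the 37 genes both KO libraries numbered 3 lay above all the other 10 libraries. This pair of libraries was singled out after the values were seen, so the count is a description. Among the 27 tested members 15 had this order, 55.6%, and among all tested genes 10.2% had it. Ifit1, Ifih1 and Oas1a reached 1 FPKM in only 3 libraries, both KO libraries numbered 3 among them. The filter thus admitted them partly through the libraries scored here, so these shares are a description too. At least 1 FPKM was reached by 34 and 30 members in these libraries at 3 and 6 months and by 18 to 25 in the rest. The mean over the 37 genes of log2(FPKM + 1), centred on each gene's mean, was 1.16 and 1.23 in these 2 libraries and between -0.43 and 0.01 in the rest. By role, the order held for 5 of 6 sensors and adaptors, 0 of 2 receptor subunits, 1 of 5 transcription factors, 6 of 14 antiviral effectors, 3 of 5 modifiers and feedback genes, and 5 of 5 other induced genes.

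**Figure D1:**
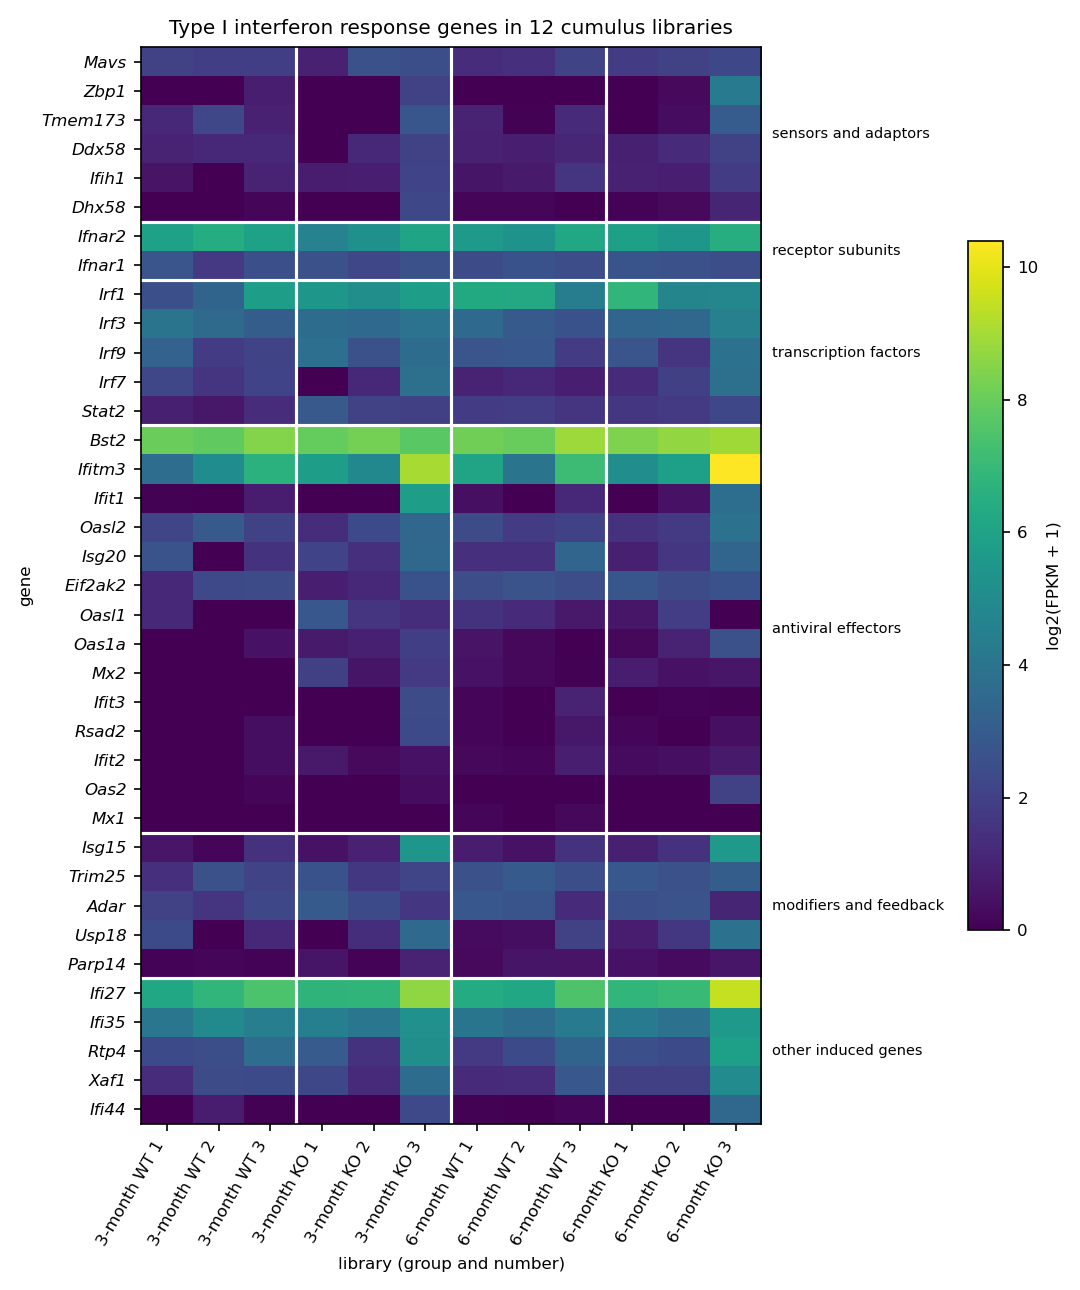
Level of each of the 37 genes (rows, grouped by role) in each of the 12 libraries (columns, 3 per group), coloured by log2(FPKM + 1). The columns of the KO libraries numbered 3 are brighter in most rows of sensors, effectors such as Ifit1 and Ifitm3, Isg15, Usp18 and the other induced genes, whereas Bst2 is bright in all 12 columns and the rows of Ifnar1 and Trim25 do not follow this order.

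Promoters were inspected because members that were high together are textbook targets of ISGF3 and of the interferon regulatory factors (IRFs). RefSeq promoter windows, 250 bases before to 50 bases after a gene's start on GRCm38.p6, were matched by symbol for 27 of the 37 genes. Those unmatched were Usp18, Zbp1, Mx1, Mx2, Rtp4, Parp14, Ifi27, Tmem173, Dhx58 and Oas2. The windows were searched on both strands for the core of an IRF site, taken as GAAA, any 2 bases and GAAA again, where runs of such units overlap and count once per gene. It occurred in 11 of the 27 matched members, 40.7%, namely Bst2, Ddx58, Eif2ak2, Ifih1, Ifit1, Ifit3, Ifitm3, Isg15, Oas1a, Rsad2 and Stat2. Of the 27025 genes with a promoter window, 3.99% held it. Of the 12 matched members whose 2 highest libraries were the KO libraries numbered 3, 6 held it (50%), and of the other 15 members 5 held it (33.3%). A match is a description of letters in this window and does not show that a factor was bound.

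Stretches of 5 of these promoters show the element, first in 3 genes that were highest in both KO libraries numbered 3 (Isg15, Ifit1 and Oas1a) and then in 2 that were not (Bst2 and Stat2). Each is written 5′ to 3′ on the strand of the gene, and capitals mark the GAAA units, or TTTC where the element lies on the opposite strand. In the same order they lie at chr4:156200852-156200931 on the minus strand, chr19:34640750-34640829 on the plus strand, chr5:120907526-120907580 on the minus strand, chr8:71537558-71537637 on the minus strand and chr10:128270248-128270320 on the plus strand.
Isg15: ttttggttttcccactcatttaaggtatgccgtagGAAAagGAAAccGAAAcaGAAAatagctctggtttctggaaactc
Ifit1: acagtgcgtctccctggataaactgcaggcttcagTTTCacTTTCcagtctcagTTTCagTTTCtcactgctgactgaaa
Oas1a: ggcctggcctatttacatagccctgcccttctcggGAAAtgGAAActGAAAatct
Bst2: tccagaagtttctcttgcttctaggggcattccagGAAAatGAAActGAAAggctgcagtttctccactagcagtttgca
Stat2: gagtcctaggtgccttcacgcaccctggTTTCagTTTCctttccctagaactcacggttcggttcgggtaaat
The first base of the element stood at position -78 from the start in Isg15, -104 in Ifit1, -20 in Oas1a, -130 in Bst2 and -222 in Stat2. Runs of adjoining units are seen in Isg15, Oas1a and Bst2, and Ifit1 holds a pair of separate elements at -104 and -85.

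Among the sensors and adaptors, the cytosolic nucleic acid receptors were near the detection limit in most libraries and higher in KO library 3. Ddx58 encodes RIG-I, an RNA helicase that recognises viral RNA ends. At 3 months Ddx58 stood at 1.02, 1.29 and 1.23 FPKM in the WT libraries, in the order 1 to 3 used throughout, and at 0, 1.24 and 3.17 in KO. At 6 months it stood at 0.916, 0.831 and 1.14 in WT and at 0.863, 1.39 and 3.02 in KO. Only the KO libraries numbered 3 were above the others. Ifih1, which encodes the long-RNA sensor MDA5, reached 3.26 and 2.56 FPKM in these libraries and 0 to 1.98 in the other 10. Dhx58, encoding LGP2, a regulator of both sensors, reached 3.82 and 1.13 against 0.21 at most. Zbp1, a sensor of Z-form nucleic acids that can trigger cell death, was at 0 in 8 libraries and at 3.11 and 19.2 in the KO libraries numbered 3 at 3 and 6 months. Tmem173 encodes STING, the adaptor of cytosolic DNA sensing. It stood at 5.79 and 7.13 FPKM in the KO libraries numbered 3, at 0, 0, 0 and 0.261 in the other 4 KO libraries, and at 0.0537 to 3.58 in the 6 WT libraries. The mean of libraries 1 and 2 was therefore below WT at both ages, and with library 3 the groups overlapped. Mavs, the mitochondrial outer membrane adaptor of RIG-I and MDA5, lay between 0.916 and 5.05 FPKM, with its highest value in 3-month KO library 2 and no separation of the groups.

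The receptor subunits differed in level, and neither had both KO libraries numbered 3 above all other libraries. Within each KO group library 3 was the highest for Ifnar2. Ifnar2 lay between 23.6 and 88.2 FPKM, above Ifnar1, which lay between 2.32 and 5.66, in each of the 12 libraries. At 3 months Ifnar2 stood at 61.0, 86.8 and 61.7 FPKM in WT and at 23.6, 36.7 and 66.5 in KO. KO libraries 1 and 2 were lower than all 3 WT libraries, and KO library 3 lay within the WT range. At 6 months Ifnar2 stood at 47.6, 38.0 and 72.1 in WT and at 58.6, 44.4 and 88.2 in KO, and the groups overlapped.

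Among the transcription factors only Irf7 had the KO libraries numbered 3 at the top. Irf7, the regulator that interferon induces and that in turn drives interferon genes, stood at 3.66, 2.06 and 3.28 FPKM in 3-month WT and at 0, 1.24 and 13.3 in 3-month KO. At 6 months Irf7 stood at 1.04, 1.30 and 0.852 in WT and at 1.46, 2.88 and 13.5 in KO. KO libraries 1 and 2 were thus below the WT libraries at 3 months and above them at 6 months. Stat2, the ISGF3 subunit, stood at 0.903, 0.591 and 1.53 FPKM in 3-month WT and at 6.47, 3.10 and 2.91 in 3-month KO. All 3 KO libraries were higher, with library 1 the highest. At 6 months Stat2 stood at 2.58, 2.73 and 1.94 in WT and at 2.13, 2.43 and 3.73 in KO, and the groups overlapped.

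Irf1, a regulator of interferon and inflammatory genes, varied within groups by more than between them. It stood at 4.88, 9.29 and 54.2 FPKM in 3-month WT and at 43.8, 34.7 and 54.6 in 3-month KO. At 6 months Irf1 stood at 79.4, 75.7 and 19.8 in WT and at 113, 25.9 and 26.9 in KO. WT library 3 was the highest of its group at 3 months and the lowest at 6 months. Irf3, the factor that sensors activate directly and that does not need prior interferon, stood at 15.2, 11.1 and 7.34 in 3-month WT and at 11.7, 10.9 and 14.6 in 3-month KO. At 6 months Irf3 stood at 10.6, 6.80 and 5.12 in WT and at 9.39, 10.4 and 22.2 in KO, with library 3 the lowest of each WT group and the highest of each KO group. Irf9, the DNA-binding subunit of ISGF3, lay between 1.98 and 14.1 FPKM, and it peaked in 6-month KO library 3, ahead of the 13.1 of 3-month KO library 1.

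The antiviral effectors differed widely in level, and 6 of the 14 had the KO libraries numbered 3 on top. Bst2 encodes tetherin, which holds budding virions at the cell surface. It stood at 262, 235 and 349.8 FPKM in 3-month WT and at 243, 296 and 214 in 3-month KO. At 6 months Bst2 stood at 279, 249.7 and 473 in WT and at 339, 424 and 487 in KO. It was the member with the highest mean level over the 12 libraries (321 FPKM), and 3-month KO library 3 had the lowest value of all. Ifitm3, a membrane protein that blocks viral entry, stood at 12.2, 32.2 and 99.4 in 3-month WT and at 53.8, 27.6 and 522 in 3-month KO. At 6 months Ifitm3 stood at 67.1, 15.1 and 138 in WT and at 33.3, 57.7 and 1352 in KO. Library 3 was the highest of each of the 4 groups for this gene, and its KO values there were above its WT values.

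Ifit1 binds viral RNA that lacks the host cap structure and is among the most inducible interferon targets. It stood at 0.0503, 0 and 0.799 FPKM in 3-month WT and at 0, 0 and 53.6 in 3-month KO. At 6 months Ifit1 stood at 0.329, 0.0217 and 1.31 in WT and at 0, 0.428 and 12.7 in KO. The gene was close to 0 in all libraries other than the KO libraries numbered 3, including 6-month WT library 3. Its neighbour Ifit3 was at 4.29 in 3-month KO library 3 but at 0.0412 in 6-month KO library 3, and Rsad2, encoding the antiviral enzyme viperin, was likewise at 4.03 and 0.328. Ifit2 stayed at 0.828 or below in all 12 libraries. For Ifit3 and Rsad2 the second highest library was 6-month WT library 3, at 1.04 and 0.606 FPKM.

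The oligoadenylate synthetase family includes enzymes that make a messenger that activates RNase L. Oas1a stood at 0, 0 and 0.440 FPKM in 3-month WT and at 0.674, 0.880 and 2.86 in 3-month KO, with the groups not overlapping. At 6 months Oas1a stood at 0.480, 0.158 and 0 in WT and at 0.171, 1.04 and 4.96 in KO. Oasl1, which limits translation of Irf7 mRNA, went another way, with 1.28, 0 and 0 in 3-month WT and 6.16, 2.08 and 1.57 in 3-month KO. At 6 months Oasl1 stood at 1.90, 1.44 and 0.647 in WT and at 0.569, 2.73 and 0 in KO. Library 3 was the lowest KO library for Oasl1 at both ages. Oasl2 reached 9.69 and 13.6 in the KO libraries numbered 3 against 1.59 to 6.47 elsewhere, and Oas2 reached 0.26 and 3.07 against 0.128 at most. Isg20, an exonuclease that degrades viral RNA, reached 10.5 and 9.49, the latter barely above the 9.44 of 6-month WT library 3.

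Eif2ak2 encodes PKR, the kinase that stops translation when it binds double-stranded RNA. It stood at 1.23, 3.90 and 4.16 FPKM in 3-month WT and at 0.810, 1.21 and 5.21 in 3-month KO. At 6 months Eif2ak2 stood at 4.55, 5.30 and 4.47 in WT and at 5.96, 4.24 and 5.20 in KO. The 6-month libraries were alike, and 3 of the 3-month libraries were low. The Mx genes encode dynamin-like GTPases that trap viral particles. Mx1 was at 0 in 10 libraries and at 0.156 or less in the others, and Mx2 reached 2.88 and 2.45 in libraries 1 and 3 of 3-month KO.

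Among the modifiers, Isg15 showed the widest separation. ISG15 is a ubiquitin-like protein that is joined to other proteins in interferon-treated cells. Isg15 stood at 0.568, 0.137 and 1.76 FPKM in 3-month WT and at 0.434, 0.952 and 42.6 in 3-month KO. At 6 months Isg15 stood at 0.723, 0.405 and 1.85 in WT and at 0.877, 1.78 and 46.9 in KO. Nothing outside the KO libraries numbered 3 exceeded 1.85. Usp18, which removes ISG15 and restrains the receptor, reached 10.8 and 13.9 FPKM there and 0 to 4.08 in the other 10. Parp14, an ADP-ribosyltransferase, had the same order by a small margin, at 1.02 and 0.530 against 0.513 at most. Adar, the enzyme that edits double-stranded RNA, stood at 3.00, 2.06 and 3.77 in 3-month WT and at 6.67, 4.09 and 2.09 in 3-month KO. At 6 months Adar stood at 6.00, 5.51 and 1.34 in WT and at 4.82, 5.38 and 1.13 in KO, so that library 3 was the lowest of 3 of the 4 groups. Trim25, the ubiquitin ligase that activates RIG-I, lay between 1.68 and 7.44 with no such order.

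All 5 of the other induced genes had their 2 highest values in the KO libraries numbered 3. Ifi27, a mitochondrial protein of interferon-treated cells, stood at 72.3, 114 and 176 FPKM in 3-month WT and at 108, 112 and 412 in 3-month KO. At 6 months Ifi27 stood at 84.6, 71.7 and 180.4 in WT and at 115, 127 and 709 in KO. At 6 months KO libraries 1 and 2 also lay above WT libraries 1 and 2. Rtp4, a receptor chaperone, stood at 4.05, 4.58 and 12.2 in 3-month WT and at 7.01, 1.84 and 34.3 in 3-month KO. At 6 months Rtp4 stood at 2.41, 4.03 and 9.20 in WT and at 4.78, 4.11 and 57.3 in KO. Library 3 was thus the highest of each of the 4 groups for Ifi27 and for Rtp4. Ifi35 stood at 16.0, 30.9 and 20.6 in 3-month WT and at 21.4, 16.1 and 36.9 in 3-month KO. At 6 months Ifi35 stood at 15.6, 11.8 and 19.2 in WT and at 19.1, 13.8 and 48.0 in KO, again with both KO libraries numbered 3 above the rest. Xaf1, a proapoptotic interferon target, reached 11.7 and 31.8 against 1.37 to 6.01 in the other 10. Ifi44 reached 3.87 and 10 FPKM against 0.73 at most.

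**Figure D2:**
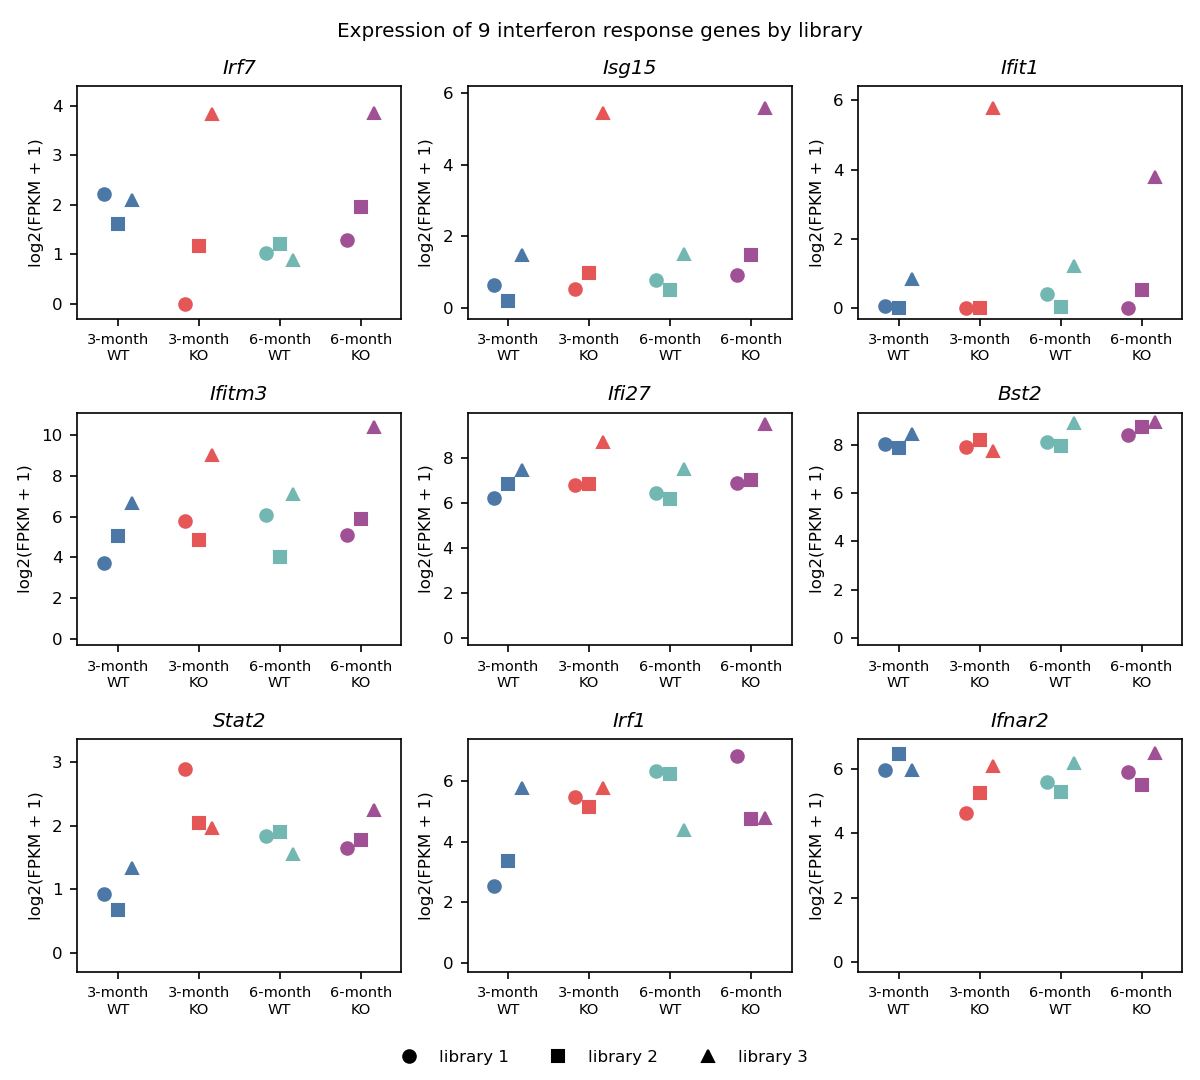
Log2(FPKM + 1) of 9 members in every library, with groups on the horizontal axis and circles, squares and triangles for libraries 1, 2 and 3. For Irf7, Isg15, Ifit1, Ifitm3 and Ifi27 the KO triangles stand apart from all other points, whereas for Stat2 all 3 of the 3-month KO points lie above 3-month WT and for Bst2, Irf1 and Ifnar2 the triangles lie among the other libraries or near them.

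Library 3 was also set against libraries 1 and 2 within each group, on the log2(FPKM + 1) scale. The median over the 37 members of library 3 minus the mean of libraries 1 and 2 was 0.18 in 3-month WT, 1.23 in 3-month KO, 0.17 in 6-month WT and 0.93 in 6-month KO. Over all tested genes these medians were 0.073, 0.083, 0.028 and 0.015. The gap exceeded 1 log2 unit for 4 of the 37 members in 3-month WT, 21 in 3-month KO, 6 in 6-month WT and 18 in 6-month KO. In 3-month and 6-month KO it was 5.77 and 3.52 for Ifit1, 4.70 and 4.39 for Isg15 and 3.73 and 4.92 for Ifitm3. In the WT groups Ifitm3 had gaps of 2.26 and 2.07 and Isg15 of 1.05 and 0.87, so that library 3 was the higher there too, by less.

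Of the 27 tested members, 12 were above both other libraries in library 3 of 3-month WT, where 36.6% of all tested genes were. The count was 19 in 3-month KO (all genes 41.5%), 15 in 6-month WT (44.6%) and 22 in 6-month KO (44.4%). By at least 1 log2 unit, 3 members were above in 3-month WT (all genes 4.72%), 14 in 3-month KO (10.5%), 6 in 6-month WT (7.90%) and 15 in 6-month KO (14.4%). A gene that is high in the KO libraries numbered 3 alone needs only 1 more library at 1 FPKM to be tested, so these counts describe the genes tested and do not stand for all 37.

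Other cells differed between the libraries along with these genes. Theca and stroma markers, 9 in number, all detected in both KO libraries numbered 3, summed to 1102 and 1364 FPKM there, to 144 and 104 in library 3 of 3-month and 6-month WT and to 1.86 to 41.9 in libraries 1 and 2. The theca enzyme Cyp17a1 alone was at 932 and 1062 there and at 119 or less elsewhere. Oocyte markers, 8 in number, summed to 50.4 and 232 against 1.25 to 14.0. The leukocyte sums given above were highest in 6-month KO library 3, where Lyz2, a macrophage lysozyme, was at 397 FPKM, and the pan-leukocyte gene Ptprc was at 0.153, 2.67 and 2.56 in library 3 of 3-month KO, 6-month WT and 6-month KO. Red blood cell markers, 4 in number, summed to 744, 635 and 1166 FPKM in library 3 of 3-month WT, 3-month KO and 6-month WT but to 23.7 in that of 6-month KO, against 4.38 to 62.8 in libraries 1 and 2. That sum mixes opposite orders. In 6-month KO Hbb-b1 was at 14.0 in library 3 against 0.138 and 1.17 in libraries 1 and 2, and Hba-a1 at 9.58 against 0.156 and 0.334. Alas2 was at 0.0854 against 27.3 and 14.1, and Hba-a2 was at 0.0249 or less in all of them. Of the 14 leukocyte markers 7 had both KO libraries numbered 3 on top, as had 6 of 9 theca and stroma, 6 of 8 oocyte, 1 of 6 endothelial, 0 of 4 red blood cell and 0 of 8 granulosa and cumulus markers. In 6-month WT library 3 the leukocyte sum was above that of 3-month KO library 3, with Cd74 at 178 against 20.0 and Lyz2 at 151 against 64.2. Other leukocyte markers had the reverse order, among them C1qc at 11.4 against 45.0 and Csf1r at 0.232 against 1.59. Isg15, Ifit1 and Irf7 were at 1.85, 1.31 and 0.852 FPKM in 6-month WT library 3 against 42.6, 53.6 and 13.3 in 3-month KO library 3. The part of these cells, and of the small RNA share, in the interferon values was not tested. In RNA from pooled cells, more cells of a type and more RNA per cell cannot be told apart.

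**Figure D3:**
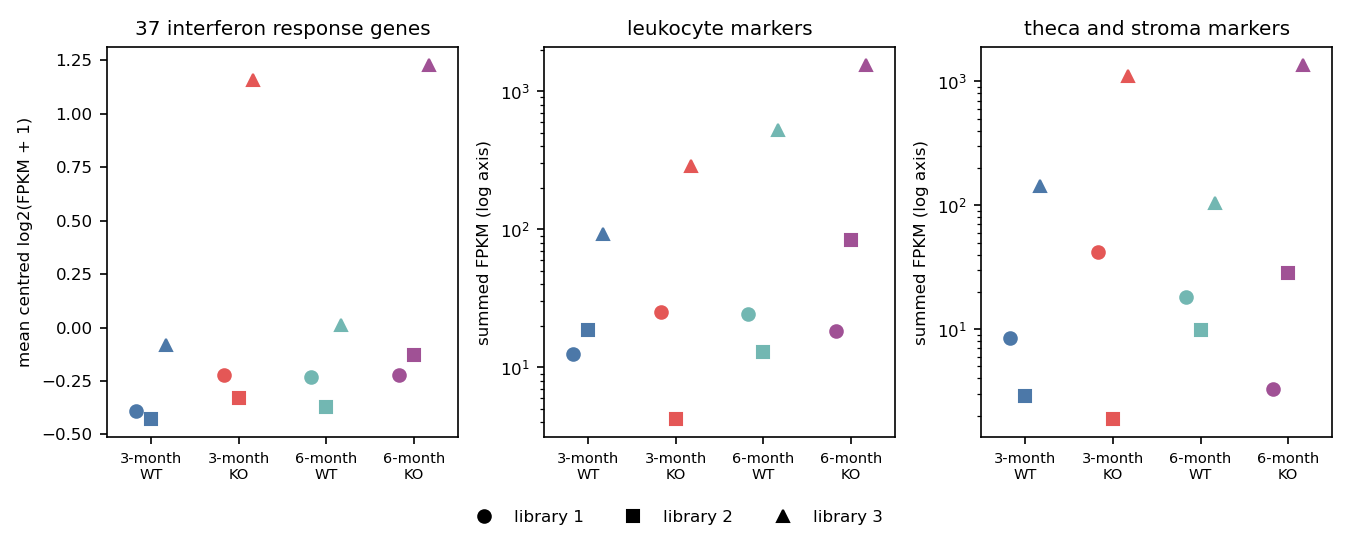
Mean centred log2(FPKM + 1) of the 37 genes (left), and summed FPKM of 14 leukocyte markers (middle) and 9 theca and stroma markers (right), both on log axes, in each library by group. Library 3 of the KO groups is highest in the left and right panels at both ages, while in the middle panel 6-month WT library 3 (523) lies above 3-month KO library 3 (287). Single leukocyte markers did not all have the order of that sum.

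KO and WT were compared at 3 months with all 12 libraries in the limma fit. Most members were higher in KO on average, but none passed the threshold of 0.05 on the adjusted p. Of the 27 tested members 21 had a positive log2 difference, with a median of 0.37 and a range from -0.82 to 1.62, where all tested genes had a median of 0.012 and 51.2% of them were above 0. Without KO library 3 alone the median of the members was -0.05. The adjusted call was made for 0 of 27 members by limma (all genes 0.00893%), and 2 of 27, Stat2 and Oasl1, had an unadjusted p under 0.05 (all genes 6.80%). The groups did not overlap, with KO higher, for 3 members, Stat2, Oasl1 and Oas1a (all genes 5.02%), and with KO lower for 0 (all genes 5.22%). The unadjusted share of members, 7.41%, is close to the background. Stat2 differed by 1.32 (SE 0.35, adjusted p = 0.643) and Oasl1 by 1.54 (SE 0.56, adjusted p = 0.664). The members with the smallest p among the lower ones were Ifnar2 at -0.82 (SE 0.40, adjusted p = 0.747) and Eif2ak2 at -0.39 (SE 0.47, adjusted p = 0.872). The genes with the highest KO values had wide errors, as with Ifit1 at 1.62 (SE 1.36), Isg15 at 1.54 (SE 1.30) and Ifitm3 at 1.41 (SE 1.42).

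At 6 months 23 of 27 members had a positive difference, with a median of 0.36 and a range from -0.33 to 1.73, against a median of 0.014 and 51.5% above 0 over all tested genes. Without KO library 3 alone the median of the members was 0.09. The limma call was made for 0 of 27 (all genes 0.0268%), and 0 of 27 had an unadjusted p under 0.05 (all genes 1.22%). The groups did not overlap for 1 member with KO higher, Irf7 (all genes 3.79%), and for 0 with KO lower (all genes 3.01%). Irf3 differed by 0.77 (SE 0.39) and Oas1a by 1.02 (SE 0.54), each with an adjusted p of 1.0. The members with the smallest p in the other direction, Oasl1 at -0.33 (SE 0.56) and Adar at -0.14 (SE 0.54), were closer to 0 than their errors. Isg15 had the largest difference, 1.73 (SE 1.30), and that of Irf7 was 1.33 (SE 0.84).

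Averaged over both ages, 24 of 27 members were above 0, with a median of 0.50 and a range from -0.27 to 1.64, against 0.008 over all tested genes. By limma 0 of 27 were called (all genes 0.0179%), and 2 had an unadjusted p under 0.05 (all genes 5.96%). These were Stat2 at 0.72 (SE 0.25, adjusted p = 0.783) and Oas1a at 1.02 (SE 0.38, adjusted p = 0.783). Ifnar2 at -0.27 and Eif2ak2 at -0.16 were on the other side. The median of the members was 0.27 without KO library 3 of either age and 0.05 without both.

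Whether the KO effect differed between ages was tested as an interaction. It was called for 0 of 27 members by limma (all genes 0.00893%), and 2, Stat2 and Oasl1, had an unadjusted p under 0.05 (all genes 2.00%). The KO effect at 6 months minus that at 3 months was -1.20 (SE 0.49) for Stat2 and -1.88 (SE 0.79) for Oasl1. In the other direction it was 1.08 (SE 0.56) for Ifnar2 and 1.64 (SE 1.19) for Irf7. The adjusted p was 1.0 for each of these 4 genes. The median of the members was 0.27, and it ran from -0.19 without 6-month KO library 3 to 0.79 without 3-month KO library 3. It was also below 0 without 3-month KO library 1 (-0.09) or 2 (-0.13).

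Leaving out library 3 of every group reduced the KO differences of inducible genes such as Ifit1, Isg15 and Ifitm3 at both ages. At 3 months those of Oasl1 (1.54 to 1.64), Stat2 (1.32 to 1.67) and Irf1 (1.58 to 2.36) grew. At 6 months that of the regulator Irf3 fell from 0.77 to 0.19. With libraries 1 and 2 only, 14 of 27 members were above 0 at 3 months, with a median of 0.11, and 18 of 27 at 6 months, with a median of 0.19. The genes tested were still those that passed the filter with all 12 libraries, so some stayed in through the libraries left out. In libraries 1 and 2 Ifit1 did not exceed 0.428 FPKM, Ifih1 0.951 and Oas1a 1.04. At 3 months 9 members changed sign, 8 of them from positive to negative, and at 6 months 5 did, all from positive to negative. Ifit1 went from 1.62 to -0.04 at 3 months and Isg15 from 1.54 to 0.33. At 6 months Isg15 went from 1.73 to 0.55, Irf7 from 1.33 to 0.51 and Ifi27 from 1.07 to 0.63. No member was called in limma at either age (all genes 0.402% at 3 months and 0.0179% at 6 months). With an unadjusted p under 0.05 there were 8 of 27 members at 3 months (all genes 18.9%) and 1 at 6 months, Ifi27 (all genes 1.35%).

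The 8 members at 3 months without library 3 were 5 that were higher in KO, Stat2, Irf1, Oasl1, Adar and Oas1a, and 3 that were lower, Ifnar2, Tmem173 and Irf7. Stat2 differed by 1.67 (SE 0.37, adjusted p = 0.0933) and Irf1 by 2.36 (SE 0.61, adjusted p = 0.111). Ifnar2 differed by -1.28 (SE 0.31, adjusted p = 0.102), Tmem173 by -1.69 (SE 0.44, adjusted p = 0.111) and Irf7 by -1.33 (SE 0.47, adjusted p = 0.192). In these libraries, then, the STING and IRF7 transcripts averaged lower in 3-month KO, without passing the test, whereas KO library 3 was above every WT library for both. With 2 libraries a group these values rest on the spread pooled over the 4 groups.

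Averaged over both ages without library 3, 20 of 27 members were above 0, with a median of 0.15. By limma 0 were called (all genes 0.0357%), and 4 had an unadjusted p under 0.05 (all genes 11.5%). These were Tmem173 at -1.03 (SE 0.31), Stat2 at 0.76 (SE 0.26), Ifi27 at 0.45 (SE 0.18) and Ifnar2 at -0.51 (SE 0.22). Oas1a, at 0.53 (SE 0.24), was no longer among them. For the difference of the KO effect between ages 0 were called (all genes 0.00%), and again 4 had an unadjusted p under 0.05 (all genes 8.26%). Ifnar2 differed by 1.54 (SE 0.43), Stat2 by -1.83 (SE 0.53), Irf1 by -2.87 (SE 0.86) and Irf7 by 1.85 (SE 0.67), and Oasl1, at -1.77 (SE 0.86), was no longer among them.

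**Figure D4:**
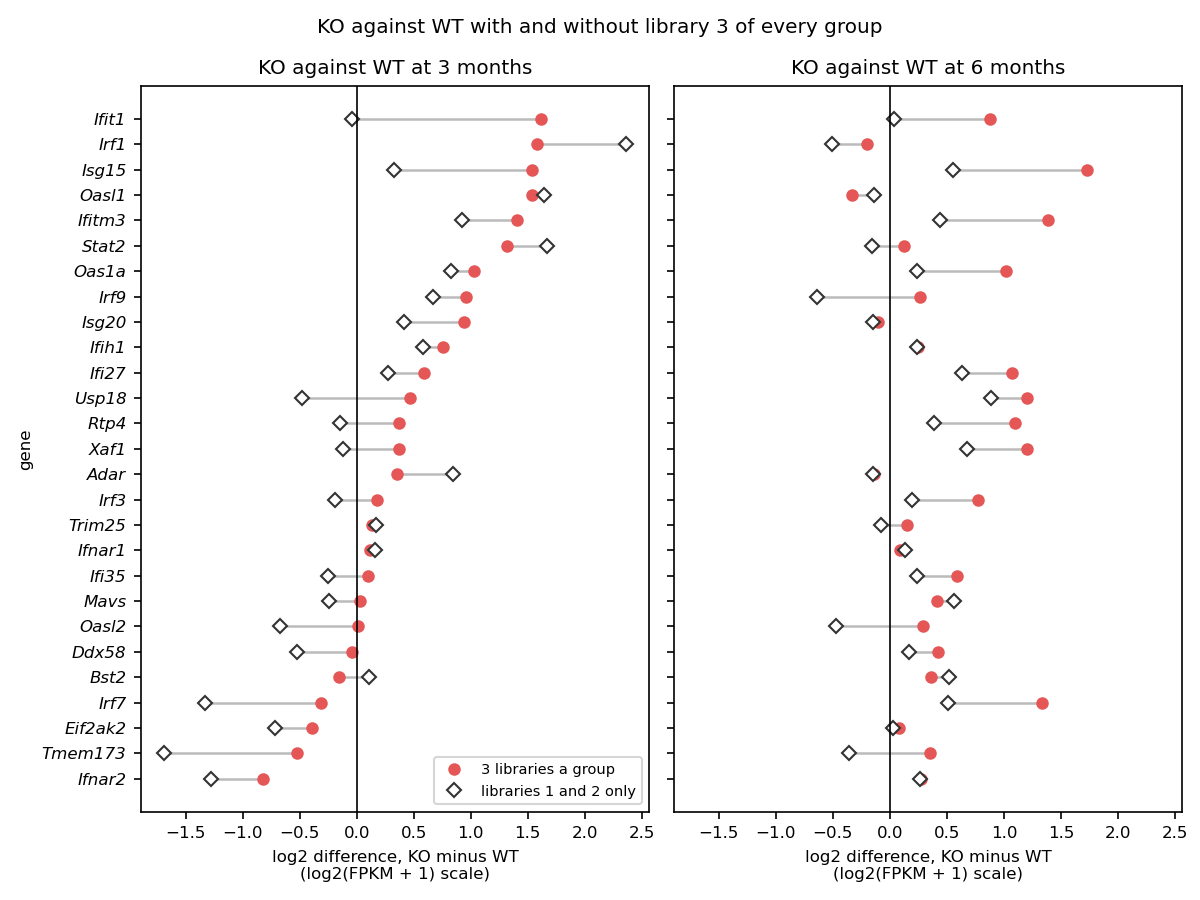
Log2 difference of KO minus WT for each of the 27 tested members at 3 months (left) and 6 months (right), with filled circles for 3 libraries a group and open diamonds for libraries 1 and 2 only; the zero line marks equal means. Diamonds lie nearer to 0 than circles for Isg15, Ifit1 and Ifitm3 at both ages, and farther from 0 for Stat2, Irf1, Ifnar2, Tmem173 and Irf7 at 3 months.

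Age was compared within each genotype, using the same libraries that served as groups in the comparisons above. In WT, 15 of 27 members were higher at 6 months, with a median of 0.09, against 0.027 over all tested genes. The median was -0.02 without 3-month library 2, -0.09 without 6-month library 3, 0.04 without 6-month library 1 and 0.26 without 3-month library 3. By limma 0 of 27 were called (all genes 0.00893%) and 1, Stat2, had an unadjusted p under 0.05 (all genes 7.44%). The ages did not overlap for 2 members higher at 6 months, Stat2 and Eif2ak2 (all genes 7.94%), and for 1 that was lower, Irf7 (all genes 7.81%). These counts are near or below the background. Stat2 differed by 0.79 (SE 0.35, adjusted p = 0.664) and Irf1 by 1.76 (SE 0.81, adjusted p = 0.664), while Irf3 differed by -0.52 (SE 0.39) and Irf7 by -0.94 (SE 0.84). Without library 3 Irf1 differed by 3.33 (SE 0.61, adjusted p = 0.0799), and 0 members were called (all genes 0.348%), with 5 at an unadjusted p under 0.05 (all genes 17.7%).

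In KO, 18 of 27 members were higher at 6 months, with a median of 0.12, against 0.01 over all tested genes. The median rested on single libraries, from -0.41 without 6-month library 3 to 0.61 without 3-month library 3. It was -0.11 and -0.07 without 3-month library 1 or 2, and 0.56 and 0.36 without 6-month library 1 or 2. By limma 0 of 27 were called (all genes 0.0179%) and 2, Bst2 and Eif2ak2, had an unadjusted p under 0.05 (all genes 6.48%). The ages did not overlap for 1 member higher at 6 months, Bst2 (all genes 6.82%), and for 0 lower (all genes 5.98%). Bst2 differed by 0.72 (SE 0.28, adjusted p = 0.745) and Eif2ak2 by 1.06 (SE 0.47, adjusted p = 0.745), while Oasl1 differed by -1.09 (SE 0.56, adjusted p = 0.745) and Stat2 by -0.41. Without library 3, Eif2ak2 differed by 1.59 (SE 0.43, adjusted p = 0.287), 0 members were called (all genes 0.0268%) and 2 had an unadjusted p under 0.05 (all genes 13.6%).

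Other genes of the pathway were read from a list of 110, of which 73 were tested. Their comparisons are given with all 12 libraries only, so how far they rest on library 3 is not shown. The interferon genes themselves were essentially undetected. Ifnb1, Ifna1, Ifna2, Ifna4 and Ifne were listed at 0 in all 12 libraries, and Ifnk, Ifnl2 and Ifnl3 did not exceed 1.12 FPKM, so that 0 of 8 ligands were tested. Of the 73 tested genes limma called 0 in each of the 6 comparisons, and unadjusted p-values under 0.05 were found for 4 at 3 months (3 higher in KO, 1 lower) and 2 at 6 months (both higher), where the shares of all tested genes were 6.80% and 1.22%. At 3 months 42 of the 73 were above 0 with a median of 0.10, and at 6 months 54 with a median of 0.37, against 51.2% and 51.5% of all tested genes. Both KO libraries numbered 3 were on top for 22 of 60 tested targets (36.7%) and for 1 of 13 tested signalling genes (7.69%), against the 10.2% of all tested genes. Some of these targets, Epsti1, Ddx60 and Phf11d among them, passed the filter partly through these same libraries. The list and this pair of libraries were also chosen with values known, so the shares are a description.

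Ifi47, an interferon-inducible GTPase, had the smallest p of the listed targets at 3 months. It stood at 2.26, 0 and 1.64 FPKM in 3-month WT and at 6.93, 6.73 and 18.5 in 3-month KO, a difference of 2.37 (SE 0.69, adjusted p = 0.664). All 3 KO libraries were above the WT ones, and at 6 months the values of 2.41, 2.21 and 4.24 in WT and 4.63, 3.96 and 29.3 in KO overlapped. Mov10, an RNA helicase, differed by 1.18 (SE 0.47, adjusted p = 0.711), and Ifi30, a lysosomal thiol reductase, differed by -0.73 (SE 0.29, adjusted p = 0.714). At 6 months Ifitm2, a relative of Ifitm3, differed by 0.83 (SE 0.31) and H2-D1, a class I major histocompatibility heavy chain, by 1.18 (SE 0.50), each with an adjusted p of 1.0. Ifitm2 stood at 809, 1045 and 1118 FPKM in 6-month WT and at 1447, 1864 and 1991 in 6-month KO, with every KO library above every WT library.

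The lower genes ranked by p at these ages were Slfn5 at -0.55 (SE 0.35) at 3 months and Usp25 at -0.38 (SE 0.32) and Zc3hav1, an antiviral zinc finger protein, at -0.48 (SE 0.41) at 6 months. Averaged over both ages the first by p were Ifi47 at 1.83 (SE 0.49) and Parp10 at 0.71 (SE 0.23), with Ifi30 and Usp25 on the lower side, each at -0.36. For the difference of the KO effect between ages they were Ifi30 at 0.73 (SE 0.41) and Myd88, an adaptor of Toll-like receptors, at 1.21 (SE 0.78), and Mov10 at -1.27 (SE 0.66) and the peptide transporter gene Tap2 at -0.98 (SE 0.69). Adjusted p-values from limma were 0.783 or more for all of these.

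With age in WT, the smallest p in each direction belonged to Slfn9 at 1.19 (SE 0.43) and Plscr1, a phospholipid scramblase gene, at -1.18 (SE 0.36), each with an adjusted p of 0.664 in limma. They were followed by Irf2, a transcription factor related to Irf1, at 0.91 (SE 0.43) and Pnpt1, a mitochondrial RNA exonuclease gene, at -0.67 (SE 0.33). With age in KO, they were Ifitm2 at 1.07 (SE 0.31) and H2-D1 at 1.49 (SE 0.50), and on the lower side Plscr1 at -1.04 (SE 0.36) and Trim21 at -0.90 (SE 0.49), with adjusted p-values between 0.745 and 0.752. Plscr1 stood at 28.4, 42.2 and 25.9 FPKM in 3-month WT and at 19.2, 10.8 and 11.2 in 6-month WT. In KO Plscr1 stood at 21.4, 41.1 and 23.1 at 3 months and at 18, 12 and 9.56 at 6 months. In both genotypes every 6-month library was below every 3-month library for Plscr1, and neither difference passed the threshold.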

How the data were processed

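Per the labels' protocols, Smart-Seq2 cDNA of 100 cells was made into Nextera XT libraries. The submitters' processing notes name GRCm38/mm10 as the genome, Cufflinks 1.2.1, SAMtools 0.1.18, TopHat2 2.0.10 with Bowtie2 2.1.0, FastQC and cutadapt. Their gene annotation: not given in the sources used here. The authors deposited FPKM values, so no read counts or errors per value were at hand. The members, roles, pathway list and markers were chosen with earlier results of these data known.

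Genes with at least 1 FPKM in at least 3 libraries (11196) were taken to log2 with a pseudocount of 1, log2(FPKM + 1), and fitted with 4 group means in limma 3.58.1 (R 4.3.3, trended eBayes, 8 residual and 3.9 prior degrees of freedom). A fold on this scale understates changes of low genes. P-values are 2-sided and adjusted by Benjamini and Hochberg over all 11196 genes, with a threshold of 0.05. The fit was tested on simulated data. Named by rule were, per contrast and direction, the 2 members with the smallest p, and, with values in every library, members averaging at least 10 FPKM. Isg15, Ifit1, Ddx58 and the other members given in detail were chosen after their values were seen. For other pathway genes the 2 per direction with the smallest p were named. Results for some pathway genes are not reported here.

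Same-numbered libraries were checked for pairing by the correlation of their deviations from group means. This correlation was 0.16, 0.37 and 0.47 at 6 months (KO against WT) and 0.11, 0.39 and 0.65 for age in KO, all above the limit of 0.1. It was 0.095, -0.019 and 0.21 at 3 months and 0.032, 0.03 and 0.28 for age in WT. Deviations within a group balance out, so a difference shared by the libraries numbered 3 also raises the correlations of the others. The limit cannot tell pairing from such a shared difference, and the labels name no pairs. Alternatives were pseudocounts of 0.1 and 0.5, no filter or 5 FPKM, rescaling without small RNA, quantile normalization, a replicate block, single comparisons, and leaving out libraries.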

Additional observations from a re-analysis of the deposited data

How the results depend on the processing

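No member passed an adjusted p of 0.05 in limma in any of the 6 comparisons under any alternative run, and the smallest adjusted p over all of them was 0.0799 (Irf1, age in WT, without library 3 of every group). Leaving out single libraries moved the median member difference between -0.05 and 0.60 at 3 months and between 0.09 and 0.66 at 6 months, with the lowest value each time without KO library 3. Leaving out both KO libraries numbered 3, chosen after seeing the data, gave -0.05 and 0.09, 0.09 instead of -0.33 for Oasl1 at 6 months and 0.36 instead of -0.14 for Adar at 6 months. With single libraries left out, Oasl1 at 6 months ran from -0.86 to 0.09, Adar at 6 months from -0.65 to 0.36 and Eif2ak2 averaged over both ages from -0.43 to 0.01. These sign changes rest on fewer samples, and no other cause was tested. With the replicate block the medians, 0.37 at 3 months and 0.36 at 6 months, could not move, because every group holds the same library numbers. The smallest adjusted p in limma with the block at 3 months, where the limit for pairing was not met, was 0.465, and no call changed. Errors and p-values given for the comparisons above come from fits without the block, also at 6 months and for age in KO, where the limit was met. Rescaling without small RNA moved the median of all genes at 3 months from 0.012 to 0.123 and that of the members to 0.46. Counting only the 250 bases before the start, 7 of 27 member promoters held the IRF element instead of 11. Among values of named genes under the alternatives 428 kept their direction and side of the threshold and 7 changed sign. Those genes were picked by smallest p and none was called, so this count does not stand for all 27 tested members. Without library 3 of every group 9 of the 27 changed sign at 3 months, 5 at 6 months and 6 for age in KO. Values under 1 FPKM rest on few reads, and 3 mice a group limit every comparison.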
